A study of Drosophila melanogaster with 6 samples.

Results

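Embryonic hemocytes are the blood cells of the Drosophila embryo. They arise in the head mesoderm, spread through the body, engulf dying cells and secrete extracellular matrix. Their formation depends on the GATA factor srp, after which gcm directs the macrophage-like plasmatocytes and lz the crystal cells. The receptor tyrosine kinase Pvr guides their migration and survival, and the receptors drpr and crq serve the uptake of dying cells. Pxn, Hml, Glt and Tig encode secreted proteins of the matrix and of clotting. Several of these genes are also used outside the blood: srp in endoderm and fat body, gcm and drpr in glia, and Tig at muscle attachments.

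These 10 genes, the hemocyte factors, receptors and secreted products outside the core of the basement membrane, were chosen by their symbol. Each was read from its brightest probe set, which gave 10 of the 10844 genes that the array measured under a single gene name. The data come from Drosophila melanogaster embryos with the TinD-GFP insertions, which per the labels target GFP to cardiac mesoderm cells that express Tinman, at late stage 11 to early stage 12. GFP-positive cells (3 arrays) and GFP-negative cells (3 arrays) were separated by flow cytometry from the same kind of dissociated embryos, so that every group carries the reporter. The GFP-negative cells are thus the rest of the embryo. The labels do not say whether the replicates came from separate embryo collections, and the spread between arrays may be technical.

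Values are deposited log2 signals per probe set, with array medians between 3.71 and 3.73. The background level was 2.44, the highest mean among 23 control probe sets for other organisms, and the highest such control on a single array ranged from 2.58 to 3.55. Differences are GFP-positive minus GFP-negative, with standard errors (SE) and 95% intervals from limma, whose prior variance was allowed to follow the signal level. A gene was called at a Benjamini-Hochberg adjusted p under 0.05 over all 13966 probe sets. As an alternative, limma was fitted with 1 common prior variance (the single prior variance), which gave 1482 probe sets at an unadjusted p under 0.05. The labels' cell identity was checked on marker genes. Of 4 measured pan-mesoderm and muscle markers 3 rose in GFP-positive cells, against 1.54% of all probe sets. These were sls (by 1.15), lmd (1.05) and Him (0.56 on the log2 scale). With the single prior variance 0 of the 4 were called. Of 7 measured cardiac and dorsal mesoderm markers 0 were called, with a median difference of -0.21. In 4 of the 7 the GFP-positive arrays were all lower and in 0 all higher, against 11.0% and 9.28% of all genes. The summed linear signal of the 7 was 364 to 384 on GFP-positive and 389 to 462 on GFP-negative arrays, without overlap. Him lost its call in 3 of 6 fits without a single array. Among the cardiac markers, with 3 positive and 4 negative differences, Doc2 differed by -0.42 ± 0.13 and H15 by 0.41 ± 0.56 (SE). Hand had the largest difference, 1.38 ± 0.90 (SE), and was not called. Its signal was dim, with a GFP-negative mean of 1.10 against the background level of 2.44. tin is not analysed here.

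None of the 10 hemocyte genes was called by limma with the level-dependent or the single prior variance. Of all probe sets the first fit called 340, or 2.43% (1.54% as higher and 0.895% as lower), and the second called 0, or 0.0%. Of the 6 hemocyte genes above the background level on all arrays, 4 had a positive difference, 1 (gcm) a negative one and 1 (crq) a difference near 0, with a median of 0.36. The median of all 10 was 0.42, to which lz and Hml contribute values near or below background, against -0.023 over all 10844 genes. At an unadjusted p under 0.05 there were 7 hemocyte genes with positive differences, where 7.5% of all probe sets were higher at that level. Among the 7 was Hml, whose signal was too low for a direction. Glt and Tig, also among the 7, had a mean above background only through their GFP-positive arrays. The single prior variance gave 4 such genes, Glt among them, where 5.82% of all probe sets were higher at that level. In 5 of the 10, Glt and Tig among them, the GFP-positive arrays all lay above the GFP-negative arrays, which held for 9.28% of all genes. In 1 they all lay below, which held for 11.0%. In sorted cells of mixed type, fewer cells of a kind and less RNA per cell cannot be told apart.

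**Figure D1:**
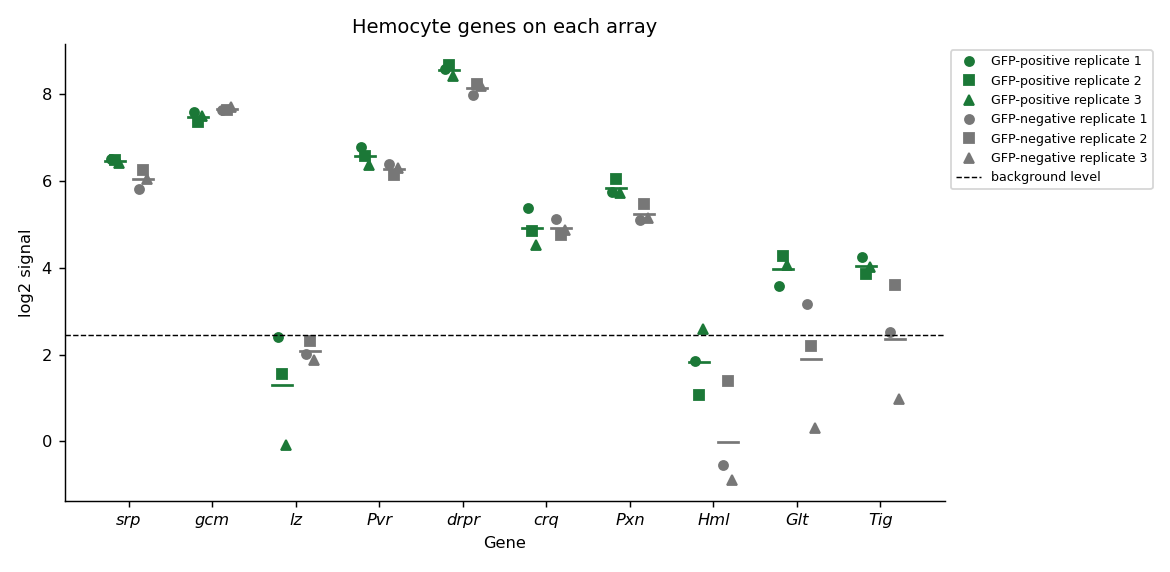
Log2 signal of the 10 hemocyte genes (x axis) on each of the 6 arrays; green symbols are GFP-positive and grey symbols GFP-negative arrays, with the replicate given by shape, short lines for group means and a dashed line at the background level of 2.44. The groups are apart for srp, gcm, drpr, Pxn, Glt and Tig, and overlap for lz, Pvr, crq and Hml.

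Among the transcription factors, srp had log2 signals of 6.50, 6.48 and 6.41 on the GFP-positive arrays, against 5.82, 6.25 and 6.04 on the GFP-negative arrays. The GFP-positive arrays were all higher and lay close together, with an SD of 0.045, while the GFP-negative arrays had an SD of 0.21. The difference was 0.43 ± 0.12 (SE, n = 3 per group; 95% interval 0.16 to 0.70), or 1.35-fold, and did not pass the limma test (adjusted p = 0.110). Because srp also marks endoderm and fat body, their markers are given beside it. Of 4 endoderm markers 0 were called and the median was -0.30, with fkh, an endodermal Forkhead factor, at -0.44 ± 0.25 and the GATA gene GATAd at 0.37 ± 0.10 (SE). Of 4 measured fat body markers 0 were called and the median was -0.29, with the larval serum protein gene Lsp2 at -0.42 ± 0.36 and Fbp1 at -0.43 ± 0.47, while the lipoprotein gene apolpp was at 0.20 ± 0.24. The summed linear signal of the endoderm markers was 169 to 183 on GFP-positive and 173 to 187 on GFP-negative arrays, and that of the fat body markers 57.1 to 88.0 on GFP-positive and 73.1 to 89.6 on GFP-negative arrays. The groups overlapped for each list.

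gcm, the factor shared by plasmatocytes and glia, ran the other way. Its log2 signals were 7.59, 7.37 and 7.49 in GFP-positive cells, against 7.63, 7.63 and 7.70 in GFP-negative cells. Every GFP-positive array was lower, but by little: the difference was -0.17 ± 0.07 (SE, 95% interval -0.34 to 0.0009) and limma did not call it (adjusted p = 0.335). Its paralogue gcm2 had log2 signals of 3.44, 3.82 and 3.47 in GFP-positive and 3.99, 3.77 and 4.42 in GFP-negative cells, a difference of -0.48 ± 0.30 that was not called and in which the groups overlapped. Of 6 glia markers 0 were called and the median was -0.065. The glial sodium pump subunit gene nrv2 differed by -0.19 ± 0.13 and Gli by -0.19 ± 0.11 (SE), while loco, which did not pass either, differed by 0.18 ± 0.08 without overlap of the groups. The list thus held differences of each sign. The glial markers summed to 345 to 388 in linear signal on GFP-positive and 352 to 397 on GFP-negative arrays.

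lz, the Runx factor of crystal cells, could not be compared. Its log2 signals were 2.41, 1.56 and -0.078 on GFP-positive and 2.01, 2.32 and 1.88 on GFP-negative arrays, all below the background level, so that no direction is shown. Of the prophenoloxidase genes, PPO1 and PPO2 lay above the background level on every array. The group means of PPO3 lay below the background level, with a single array, GFP-positive replicate 3 at 2.64, above it, while the prophenoloxidase gene PPO2 had 6.36, 6.45 and 6.59 in GFP-positive cells, against 6.12, 6.02 and 6.17 in GFP-negative cells. Its difference of 0.37 ± 0.10 (SE) was not called (adjusted p = 0.092), although the groups did not overlap. PPO1 differed by 0.07 ± 0.23.

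The receptors drpr, Pvr and crq were above the background level on every array. drpr, the engulfment receptor Draper, came nearest to a call of the 10 genes. Its log2 signals were 8.57, 8.68 and 8.41 in GFP-positive cells, against 7.99, 8.23 and 8.18 in GFP-negative cells, with no overlap. The difference was 0.42 ± 0.09 (SE, n = 3 per group; 95% interval 0.22 to 0.62), or 1.34-fold, with a limma adjusted p of 0.0502. It was called, at adjusted p-values of 0.039, 0.046 and 0.015, with array weights, after quantile normalization, or when the dimmest 40% of probe sets were left out. The gene has another probe set, which was dim: 1.26, 0.93 and 1.06 in GFP-positive and 3.11, 1.12 and 1.33 in GFP-negative cells. Only GFP-negative replicate 1 exceeded the background level there, and the mean of both probe sets gave a difference of -0.17 (adjusted p = 0.83), so the direction rests on the bright probe set.

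Pvr, the PDGF and VEGF receptor homologue, had log2 signals of 6.79, 6.59 and 6.37 in GFP-positive cells, against 6.38, 6.14 and 6.30 in GFP-negative cells. GFP-positive replicate 3 lay just below GFP-negative replicate 1, so the groups overlapped by a narrow margin. The difference of 0.30 ± 0.12 (SE, 95% interval 0.02 to 0.58) was not called (adjusted p = 0.288), and without GFP-positive replicate 1 it was 0.20. crq, the CD36-type receptor Croquemort, showed no direction. It had 5.37, 4.85 and 4.52 in GFP-positive cells, against 5.13, 4.76 and 4.86 in GFP-negative cells. The GFP-positive arrays spanned the GFP-negative ones on each side, and the difference of -0.0031 ± 0.23 had a 95% interval of -0.53 to 0.52. For crq that interval spans 0.695-fold to 1.43-fold.

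**Figure D2:**
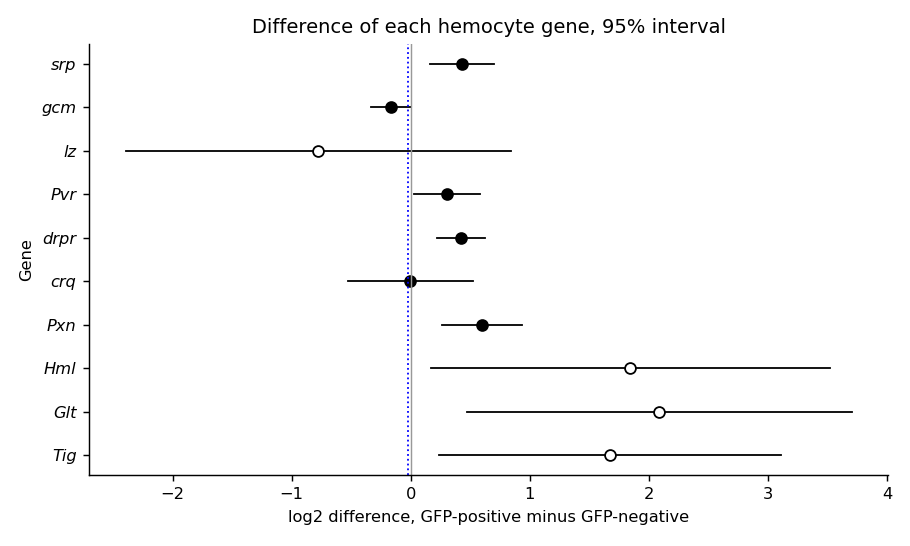
Log2 difference, GFP-positive minus GFP-negative, of each hemocyte gene with its 95% interval from limma; filled points are genes above the background level on all 6 arrays, open points those below it on at least 1 array, and the dotted line is the median of all genes, -0.023. The narrowest intervals belong to gcm and drpr, and those of lz, Hml, Glt and Tig are several times wider.

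Among the secreted products, Pxn had the largest difference of the hemocyte genes above background on every array. It encodes peroxidasin, a matrix peroxidase made by hemocytes. Its log2 signals were 5.74, 6.04 and 5.73 in GFP-positive cells, against 5.09, 5.48 and 5.14 in GFP-negative cells. The groups did not overlap, and replicate 2 was the highest array in each group. The difference was 0.60 ± 0.15 (SE, n = 3 per group; 95% interval 0.26 to 0.94), or 1.51-fold, and limma did not call it (adjusted p = 0.081). It was called when the dimmest 40% of probe sets were left out (adjusted p = 0.032), as was srp (0.047). Of the 7246 genes with a mean above the background level, 7.19% had a larger difference than Pxn, and 12.0% and 12.5% a larger one than srp and drpr.

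Glt and Tig had a mean above background only through their GFP-positive arrays, so their differences are not ranked against those of the other genes. Their GFP-negative means were 1.89 and 2.36, with arrays scattered around the background level. Glt encodes glutactin, a basement membrane glycoprotein. It had 3.58, 4.26 and 4.07 in GFP-positive cells, against 3.16, 2.20 and 0.30 in GFP-negative cells. All 3 GFP-positive arrays exceeded the highest control of their own array, and none of the GFP-negative arrays did. Only 1 of the 3 GFP-negative arrays exceeded the background level for Glt, and 2 of 3 for Tig. The fitted difference of 2.09 ± 0.71 (SE) was not called (adjusted p = 0.20). With every value below 2.44 set to that level the difference was 1.29, or 2.45-fold. This is not a lower bound, since the 95% interval of the fitted difference began at 1.38-fold.

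Tig, the integrin ligand tiggrin, had log2 signals of 4.24, 3.85 and 4.02 in GFP-positive cells, against 2.51, 3.60 and 0.98 in GFP-negative cells. The GFP-positive arrays lay close together, with an SD of 0.20, while the GFP-negative SD was 1.32. The difference of 1.67 ± 0.63 (SE) was not called (adjusted p = 0.251), and its 95% interval began at 1.18-fold. With the same floor the difference was 1.19, or 2.27-fold. GFP-negative replicate 3 held the lowest value of both genes. Without it the fitted difference was 1.29 for Glt and 0.98 for Tig, still positive and still not called.

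Hml, the clotting protein hemolectin, was near or below background throughout. It had 1.85, 1.07 and 2.58 in GFP-positive cells, against -0.54, 1.40 and -0.89 in GFP-negative cells. A single array, GFP-positive replicate 3, exceeded the background level, so the fitted difference of 1.84 ± 0.73 gives no usable fold (adjusted p = 0.283).

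**Figure D3:**
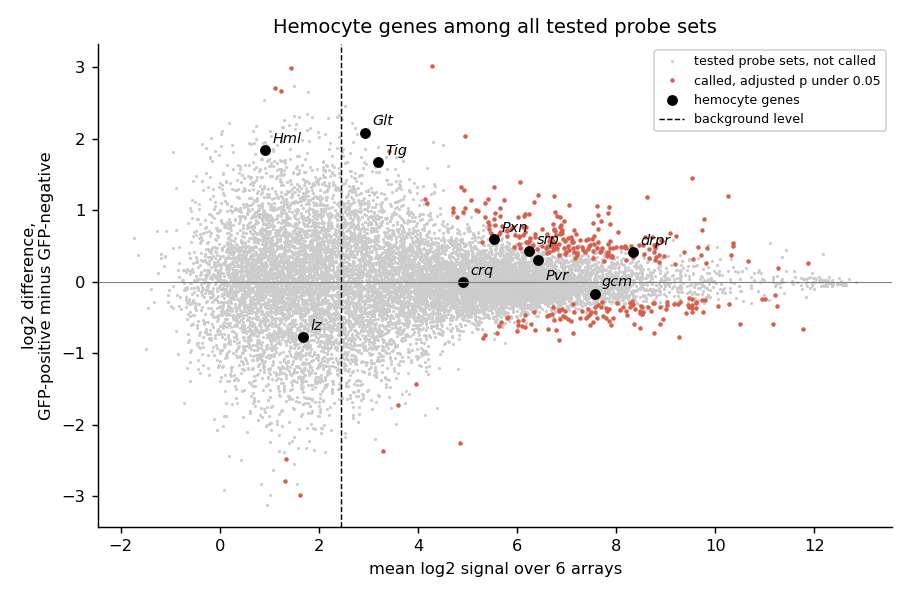
Log2 difference (y axis) against the mean log2 signal over the 6 arrays (x axis) for all tested probe sets in grey, those called at an adjusted p under 0.05 in red, and the hemocyte genes in black with their names; the dashed line is the background level of 2.44. Pxn, srp and drpr lie at the edge of the called probe sets, and Glt, Tig and Hml lie where the scatter of all probe sets is wide.

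The spread between arrays depended on the level. Over all probe sets the median SD within a group was 0.87 at mean levels of 0 to 2, 0.20 at 4 to 6, 0.11 at 6 to 8 and 0.077 above 8. When single arrays were left out, crq changed sign, with differences from -0.23 to 0.19, and the other members kept theirs. Over the 6 such fits srp lay between 0.32 and 0.53, Pxn between 0.50 and 0.72, drpr between 0.35 and 0.49, and gcm between -0.22 and -0.11. None of these fits called a hemocyte gene.

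Signal in this series also moved with the annotated span of a gene, and most of the 10 genes have long spans. Among 5169 genes of mean level over 4, the decile with the shortest spans had a median of -0.18 and the one with the longest spans a median of 0.24. By span, gcm lay at percentile 47.2 of all genes and the remaining members between percentiles 67.9 and 94.6, with srp at 91.2, Pvr at 91.6, drpr at 89.8 and Pxn at 94.6. After each array was adjusted for span, the difference was 0.24 for srp, 0.39 for Pxn, 0.24 for drpr and 0.11 for Pvr, against 0.43, 0.60, 0.42 and 0.30 without the adjustment. Those of Glt (2.09) and Tig (1.56) moved less, and the median of the 10 genes was 0.24. The span curve was taken from probe sets of mean level over 4. The means of Glt and Tig over all arrays lie below that level, and whether the curve holds for them was not tested. No gene changed sign, and none was called.

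**Figure D4:**
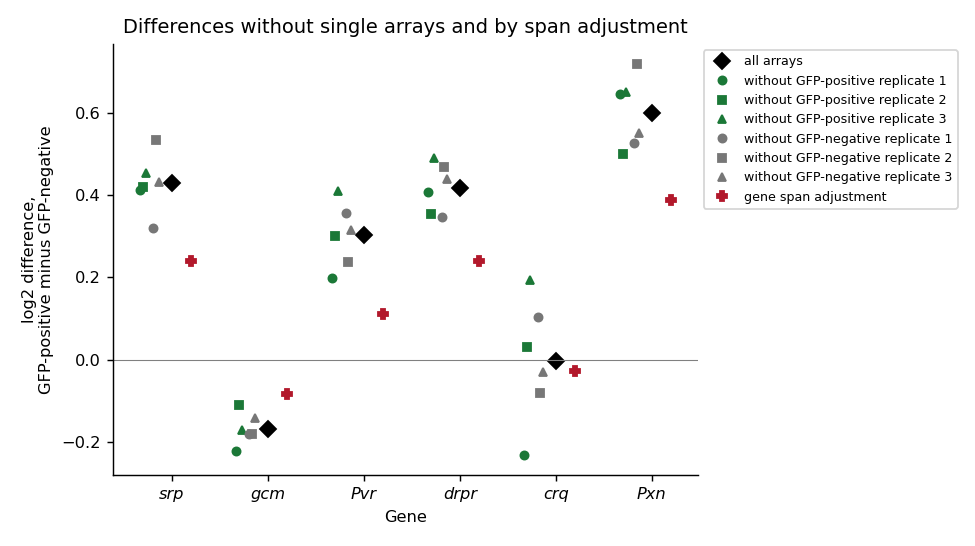
Log2 difference, GFP-positive minus GFP-negative, of the 6 hemocyte genes above background on all arrays: black diamonds use all 6 arrays, green and grey symbols leave out 1 GFP-positive or GFP-negative array, and red crosses are adjusted for gene span. srp, Pvr, drpr and Pxn stay above 0 and gcm below 0 in every fit shown, and crq lies on either side.

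Other genes known from hemocytes, 12 measured of 13 listed, had a median difference of 0.20, with 9 positive and 3 negative differences. In 3 of the 12 both group means lay below the background level, so their signs give no direction. By limma 1 rose, against 1.54% of all probe sets, 0 fell and 11 did not pass. The gene that rose was sn, which encodes the actin bundler fascin of migrating hemocytes. It had log2 signals of 7.71, 7.71 and 7.85 in GFP-positive cells, against 7.37, 7.28 and 7.32 in GFP-negative cells, a rise of 0.43 ± 0.07 (SE, limma adjusted p = 0.016). The arrays were far apart relative to their spread, but the call was lost in 5 of 6 fits without a single array (adjusted p of 0.038 to 0.072 over the 6) and after the span adjustment (0.23, adjusted p = 0.245). The scavenger receptor gene Sr-CI differed by 0.41 ± 0.13 (SE, adjusted p = 0.176), also without overlap. In 7 of the 12 the GFP-positive arrays were all higher, and in 0 all lower, against 9.28% and 11.0% of all genes. Named after their values were seen, NimC1 and eater, phagocytic receptor genes of larval hemocytes, lay below the background level in both groups.

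No measured gene of the pathways around the receptors was called. Of the Pvr ligands and signalling genes 5 of 10 listed were measured, 0 were called and the median was -0.0062. Ced-12, the ELMO homologue, differed by -0.06 ± 0.08 and the MAP kinase kinase gene Dsor1 by 0.11 ± 0.16 (SE), and the groups overlapped in each of the 5 genes. Of the engulfment genes 6 of 10 were measured, 0 were called and the median was 0.006. The integrin subunit gene scb differed by 0.47 ± 0.22 (adjusted p = 0.376), and prtp, which encodes a Draper ligand, by -0.14 ± 0.06 (adjusted p = 0.348).

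Tig binds integrins through their alpha-PS2 subunit. Of 3 integrin genes listed for it 2 were called as higher, against 1.54% of all probe sets. The alpha-PS2 gene if rose by 0.78 ± 0.13 and the beta subunit gene mys by 0.55 ± 0.07 (SE, limma adjusted p = 0.021 and 0.0059), while mew, which encodes alpha-PS1, differed by 0.10 ± 0.11 and was not called. mys kept its call in all 6 fits without 1 array, and if in 1 of the 6. After the span adjustment mys was still called (0.43, adjusted p = 0.028) and if was not (0.56, adjusted p = 0.093). With the single prior variance neither mys nor if was called. These integrin genes are also expressed in muscle, and the pan-mesoderm and muscle markers moved in the same direction: their linear signals summed to 700 to 728 on GFP-positive and 404 to 424 on GFP-negative arrays. Whether they have a part in the values of Tig was not tested.

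The core basement membrane genes, which hemocytes also secrete, included called members. Of 10 genes 6 rose, against 1.54% of all probe sets, 0 fell and 4 did not pass, with a median of 0.64. In 9 of the 10 the GFP-positive arrays were all higher, which held for 9.28% of all genes. Examples are the collagen IV gene vkg (1.11 ± 0.23), the papilin gene Ppn (0.85 ± 0.12), the nidogen gene Ndg (0.72 ± 0.12) and the laminin gene LanB1 (0.70 ± 0.11; log2, SE). Leaving out single arrays, vkg lost its call in each of 6 fits, Ndg in 5, LanB1 in 3 and Ppn in 2, and of these examples Ppn alone was called after the span adjustment. LanA and LanB2, laminin genes named after their values were seen, each rose by 0.51 ± 0.06 (SE) and kept their calls in all 6 fits and after the adjustment. Without single arrays between 2 and 4 of the 10 genes were called, 3 after the span adjustment and 0, LanA and LanB2 included, with the single prior variance. The difference between the lists themselves was not tested.

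**Figure D5:**
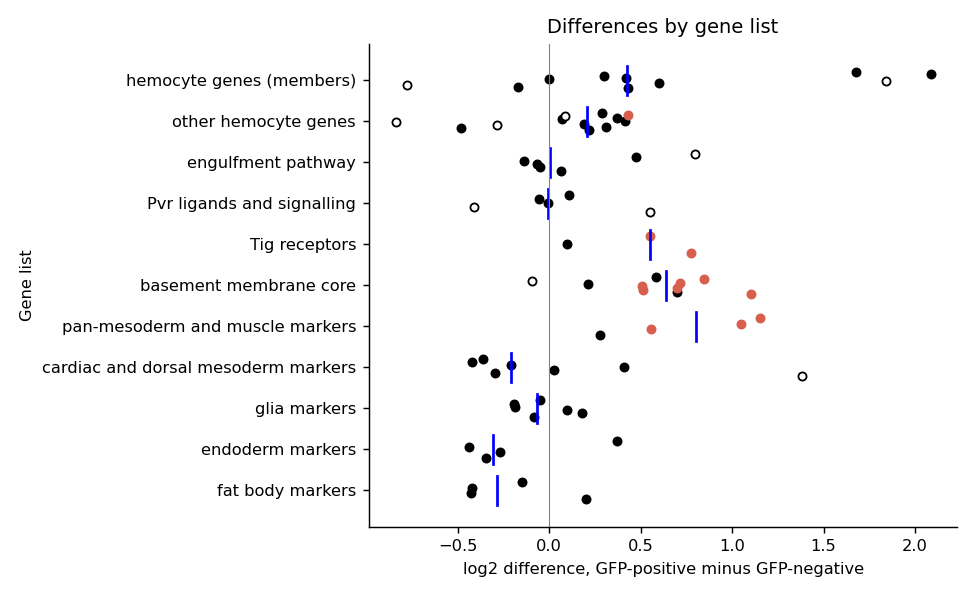
Log2 difference, GFP-positive minus GFP-negative, of every measured gene of each list; red points were called by limma, black points were not, open points have a mean below the background level, and blue bars are list medians. The hemocyte genes have a median of 0.42, open points included, with no called member, the basement membrane core 0.64 with 6 called, and the endoderm, fat body and glia markers lie at medians of -0.30, -0.29 and -0.065.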

How the data were processed

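RNA of sorted cells was measured on 6 Drosophila arrays, 3 per group, grouped by title. The authors deposited log2 values per probe set, made with the affy package per the submitters' processing notes; how background, scaling and summary were handled is not given here. The log base was read as 2 because the highest value, 12.9, fits a 16-bit scanner in that base alone. No further scaling was applied. Of 14010 probe sets 44 controls were left out. By the platform's annotation 12443 probe sets had 1 gene, 327 had several, 1196 had none (unnamed here), and 12394 matched the reference gene table (Release 6). The members, gene lists, naming rule (all members; called list genes, otherwise the largest differences above background) and the level-dependent prior variance were chosen with earlier results of these data known.

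limma 3.58.1 in R 4.3.3 was fitted across all probe sets (trend and robust options, Benjamini-Hochberg adjustment). On simulated data for 13966 probe sets it recovered 100% of 100 planted changes of 1 and of 100 of 2 (log2), with 6 false calls. The changes were planted only at mean levels above 6, with noise at the typical spread of each level. Recovery at lower levels, where Pxn, crq, Glt and Tig lie, and of changes smaller than 1 was not tested. No set test was run. The markers loco, apolpp and Hand were named outside the rule, after their values were seen. The small number of arrays limits the precision. The deviations of same-numbered arrays of the groups correlated only weakly, by at most 0.060, so no pairing was used. These correlations were taken over all probe sets, of which the dim ones spread most. They cannot settle whether the replicates were paired. Alternatives were a single prior variance, a replicate block, quantile and median scaling, array weights, a filter on dim probe sets, a pseudocount of 32, the span adjustment, the mean of a gene's probe sets and leaving out single arrays. Listed genes without a measured probe set were not analysed here.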

Additional observations from a re-analysis of the deposited data

How the results depend on the processing

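The number of called probe sets, 340, was 0 with the single prior variance, 125 after the span adjustment and 655 without the dimmest 40%. It was 437 with a replicate block and 102 to 189 without single arrays. The number of hemocyte genes called, 0, was 1 with array weights (drpr), 1 after quantile normalization (drpr) and 3 of 8 remaining genes without the dimmest 40% (srp, Pxn, drpr). It was 0 in each fit without 1 array, with the single prior variance, median centring, the pseudocount, the mean of probe sets and the span adjustment. The fit of the same genes without the span adjustment, chosen after seeing the data, also called 0. With a replicate block 2 were called, Pxn (adjusted p = 0.040) and drpr (0.034). The deviations of same-numbered arrays correlated by 0.060, 0.012 and 0.024 over probe sets, and those of differently numbered arrays by -0.047 to 0.019. The numbers were not taken as pairs. The median of the 10 genes was 0.35 to 0.50 without single arrays and between 0.24 and 0.50 over all alternatives. crq reversed to 0.037 with array weights, 0.0071 with the pseudocount and up to 0.19 without single arrays (lowest -0.23), and drpr to -0.17 with the mean of its probe sets. The causes were not tested, except that drpr's other probe set is dim. The pseudocount shrank Glt to 0.38 and Tig to 0.34. Low signal limits lz, Hml, Glt and Tig most. Any scaling of the arrays before deposit would hide a shift common to most genes.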

Other observations

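Relatives of crq and Pxn by protein family add to the description of the hemocyte genes. Of the class B scavenger receptors, the CD36 family to which crq belongs, 5 of 7 listed genes were measured and 0 were called. Of these, 2 had a mean above the background level, and no direction is given for the others. emp differed by 0.43 ± 0.23 and pes by 0.26 ± 0.18 (log2, SE, limma adjusted p = 0.455 and 0.579), and the groups overlapped in both. Of the peroxidase relatives of Pxn 5 were measured. Of these 1 was called as higher, against 1.54% of all probe sets, and 0 as lower. The called gene was Duox, the dual oxidase. It had log2 signals of 5.89, 5.92 and 5.09 in GFP-positive cells, against 4.43, 4.70 and 4.34 in GFP-negative cells, a rise of 1.14 ± 0.24 (SE, limma adjusted p = 0.046). Its call was lost in 5 of 6 fits without a single array and after the span adjustment (0.97, adjusted p = 0.105). The immune-regulated catalase gene Irc differed by 0.36 ± 0.27 and cysu by -0.34 ± 0.55, and neither was called.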
